A study of Homo sapiens with 18 samples.

Results

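OPM2 is an established human multiple myeloma cell line, and the comparison described here set OPM2 cells with a CRISPR-Cas9 inducible knockout of IKZF1 against OPM2 cells carrying an empty vector. It used 4 of the 18 libraries of the series, chosen by their column names, with 2 knockout and 2 empty vector libraries and all 14571 genes that passed a filter on low counts. All 4 were given doxycycline at 1 µg/mL, which switches on the guide RNA, and were cultured for 72 h before live cells were sorted and total RNA was taken. A second control was used as a check: 2 libraries of untreated OPM2 cells, which had neither vector nor doxycycline named in their labels, so that vector and doxycycline cannot be told apart there. The 2 knockout columns carry numbers that match neither sample title, so these libraries are called a and b. No label says whether libraries of a group came from separate cultures, clones or guide RNAs. The p-values thus measure only a spread between libraries, which may be technical. That spread was pooled over all 9 groups of the series. Standard errors and p-values may therefore understate how far the 2 empty vector libraries differed from each other.

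IKZF1 encodes Ikaros, a zinc finger DNA-binding protein of lymphoid cells that works with its relative Aiolos (IKZF3) and recruits histone deacetylase complexes. In myeloma cells, Ikaros and Aiolos sustain a gene program that includes IRF4 and MYC, and both are degraded through cereblon when lenalidomide is given. CD38, named in the title of the series, is a surface enzyme that consumes NAD and is the target of the antibody daratumumab.

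IKZF1 mRNA (Entrez 10320, chromosome 7, 50303455 to 50405101, GRCh38) was not lower in the knockout. It stood at 94.3 and 188 CPM (counts divided by the scaled library size, the usual unit of level) in empty vector replicates 1 and 2 and at 213 and 225 CPM in knockout libraries a and b. The knockout libraries were thus higher than both controls, with a log2 fold change of 0.63 ± 0.23 (SE; adjusted p = 0.0481, edgeR quasi-likelihood test). Without empty vector replicate 1 the change was 0.25 (adjusted p = 0.314), and against the untreated libraries, at 212 and 225 CPM, it was 0.00. A small insertion or deletion made by Cas9 need not lower the mRNA, so gene-level counts do not check the knockout labels. IKZF3 stood at 44.0 and 50.3 CPM in empty vector and 80.4 and 79.2 CPM in knockout libraries, with no overlap between the groups (log2 0.76 ± 0.17, adjusted p = 0.00486). That call held without empty vector replicate 1 (adjusted p = 0.0389) and was lost against untreated cells (0.39, adjusted p = 0.206). All 5 measured members of the Ikaros family were called higher, 2 of them also without that replicate and 0 against untreated cells. Over all genes tested 16.2% were higher against empty vector and 4.08% against untreated cells.

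The 2 empty vector libraries were unlike each other. Between them 1035 of 10824 well-measured genes differed by more than 2-fold, against 31 to 254 in the other 8 groups, and the log ratio of the pair fell with transcript length across 10673 genes (Spearman -0.60) and rose with GC content (0.63). Length and GC content described 31.9% of the variance of the deviations of replicate 1, and at most 2.46% in any other library. Total counts were about 15826400 and 22351200 in empty vector and 14896800 and 16539100 in knockout libraries. A value without that replicate is given below for some genes only, and other fold changes may be larger or smaller without it. Every gene said to have risen or fallen was still called without it unless stated.

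The libraries had the markers of plasma cells, with lower sums for other cells. The summed level of 8 plasma cell markers was 7905 and 7915 CPM in empty vector and 7711 to 8615 CPM in knockout libraries. The B cell markers CD22 and MS4A1 had 0 counts in all 4 libraries, and T and NK cell markers summed to 0.882 and 1.32 CPM in empty vector and 2.15 and 2.35 CPM in knockout libraries, with 6 of 16 at 0 in all 4. CD7 of that list was called higher (log2 1.46, adjusted p = 0.00975), and not without replicate 1 (adjusted p = 0.0647). Erythroid and megakaryocyte markers summed to 19.2 and 10.4 CPM in empty vector, 5.79 and 5.77 CPM in knockout and 8.73 and 7.51 CPM in untreated libraries, with 5 of 9 at 0 in all 4 compared libraries. HBB, a globin, was called lower (-1.54 ± 0.29, adjusted p = 0.00188), also without replicate 1 (-1.03), and not against untreated cells (adjusted p = 0.183). Myeloid markers summed to 5.71 to 8.38 CPM in empty vector and 33.9 to 41.0 CPM in knockout libraries. This came from CD68, a lysosomal membrane protein, and CD33, a sialic acid-binding receptor. CD68 stood at 2.64 and 1.55 CPM in empty vector and 13.2 and 31.3 CPM in knockout libraries a and b. CD33 stood at 3.89 and 3.47 CPM against 20.2 and 8.41 CPM, so the 2 genes differed in opposite ways between the knockout libraries. FCER1G stood at 1.32 and 0.456 CPM against 0.326 and 0.412 CPM. CSF1R, CD14 and ITGAM reached at most 0.706, 0.294 and 0.0651 CPM. FCGR3A, AIF1, TYROBP, ELANE, MPO and S100A9 were at 0 in all 4 libraries, and LYZ and S100A8 reached at most 0.0735 CPM. The part of the cells such markers stand for was not tested. In bulk RNA, a change in the share of cells and a change in RNA per cell cannot be told apart.

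In the comparison of knockout with empty vector, 5283 of 14571 genes were called at an adjusted p below 0.05 (36.3%), with 2365 higher (16.2%) and 2918 lower (20.0%). Among them 883 were higher (6.06%) and 544 lower (3.73%) by more than 2-fold. Without empty vector replicate 1, 3160 genes were called (21.2%), 1665 higher (11.2%) and 1495 lower (10.0%), and 1523 (10.5%) and 1390 (9.54%) genes were called the same way with and without it. Leaving out empty vector replicate 2 gave 7982 calls, knockout library a 3076 and knockout library b 3345, each with the remaining library of the group assumed to vary like the other groups. With the untreated libraries as the control 1131 genes were called (7.76%): 594 were higher (4.08%) and 537 lower (3.69%). Genes called in the same direction in all 3 of these comparisons numbered 380 higher (2.61%) and 187 lower (1.28%), a definition chosen after the values were seen, and 7 genes called with and without replicate 1 were called the opposite way against untreated cells. Fitted on the 4 compared libraries alone, 114 genes were called (0.929%), 108 of them higher (0.880%) and 6 lower (0.0489%), against 2632 genes at an unadjusted p below 0.05.

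The gene with the highest fold change was S100A16, which encodes a small calcium-binding protein (Entrez 140576, chromosome 1, 153606883 to 153613137). It stood at 0.441 and 0.0913 CPM in empty vector, 38.5 and 48.5 CPM in knockout, and 0.276 and 0.286 CPM in untreated libraries. Both knockout libraries lay far above all 4 controls, and the log2 fold change was 7.53 ± 0.50 (adjusted p = 3.41e-06), 8.81 without replicate 1 and 7.24 against untreated cells. CX3CR1, the receptor of the chemokine fractalkine, stood at 0.735 and 1.14 CPM in empty vector and 44.6 and 26.7 CPM in knockout libraries (5.18 ± 0.44, adjusted p = 5.92e-06). CYSLTR1, a receptor for cysteinyl leukotrienes, stood at 0.0735 and 0.137 CPM against 6.90 and 10.8 CPM (6.21 ± 0.63, adjusted p = 3.01e-05). Separate groups and a call without replicate 1 were conditions for naming genes by fold change. They held for CX3CR1 and CYSLTR1 by that rule, with log2 fold changes of 4.98 and 5.97 without replicate 1. Over all 14571 genes, 4058 had both knockout libraries above both empty vector libraries, and 4616 had both below. CX3CR1 and CYSLTR1 were also called against untreated cells (4.36 and 4.95).

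A further set rose from levels that could be measured in every control library. CGN, the tight junction protein cingulin, went from 11.5 and 11.6 CPM to 91.5 and 138 CPM (log2 3.31 ± 0.27, adjusted p = 5.37e-06). IGSF11, an adhesion molecule of the immunoglobulin superfamily, went from 2.20 and 3.15 CPM to 28.2 and 29.4 CPM (3.39 ± 0.22, adjusted p = 1.02e-06). SPSB1, an adaptor of a ubiquitin ligase, went from 2.13 and 2.46 CPM to 21.7 and 26.4 CPM (3.37 ± 0.25, adjusted p = 2.83e-06). These 3 genes were called against untreated cells as well, at 3.65, 2.30 and 3.25, and without replicate 1 at 3.34, 3.22 and 3.32. RYR1, a calcium release channel, SEMA5A, a semaphorin, MME, the surface peptidase CD10, and AFAP1L2, an actin filament-associated adaptor, rose with log2 fold changes of 3.29, 3.67, 3.24 and 3.03. They were named from genes above 10 CPM, a tier added after the values were seen.

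Several of the highest fold changes rested on few counts. AJUBA, a LIM domain scaffold protein, had 45 counts in the knockout libraries and 0 in empty vector, which makes it at least 16.5-fold higher against a floor of 3 counts over the group. Its 2 knockout libraries were unlike each other, at 0.456 and 2.24 CPM. CD109, a membrane glycoprotein, had 24 counts against 0 and was at least 8.78-fold higher. SMOC1, CACNA1A and AMPH had 16, 15 and 10 counts against 0 and were at least 5.86-fold, 5.49-fold and 3.66-fold higher. SECTM1 had 61 counts against 2, a ratio of 33.5 with a 95% counting interval of 8.88 to 283. KRT86, a keratin, lay at 2.08 and 9.83 CPM in the knockout libraries against 0.147 and 0.183 CPM, and GAS2L1 at 4.36 and 3.35 CPM against 0.147 and 0.183 CPM.

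**Figure D1:**
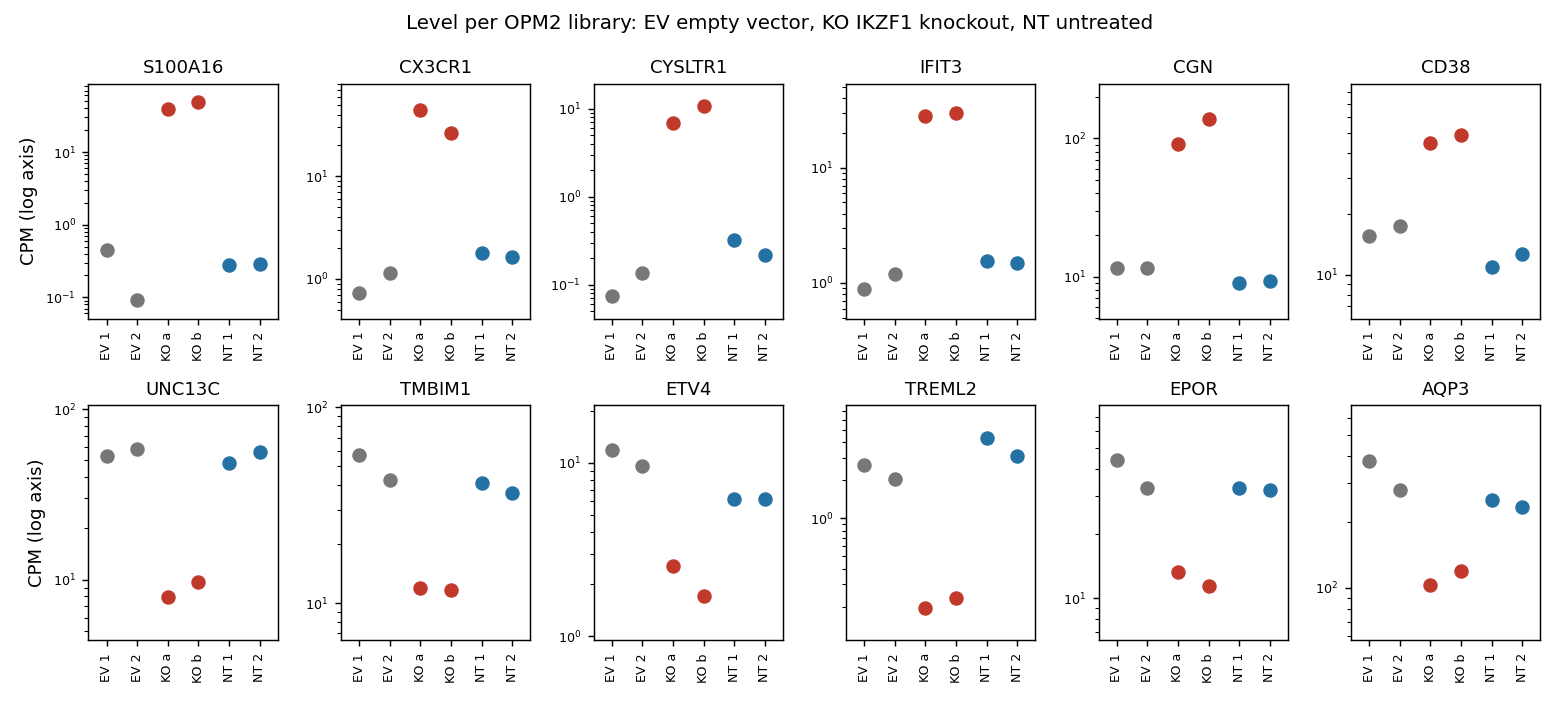
Level in CPM on a log axis of 6 genes that were higher (top) and 6 that were lower (bottom) in the IKZF1 knockout, with 1 point per OPM2 library for empty vector (EV), knockout (KO) and untreated (NT) cells. In each panel both knockout points lie on 1 side of all 4 control points, for example S100A16 at 38.5 and 48.5 CPM against at most 0.441 CPM.

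Among the lower genes was UNC13C, a presynaptic vesicle priming protein (Entrez 440279, chromosome 15, 53837602 to 54633440). It stood at 53 and 58.4 CPM in empty vector and 48.4 and 56.0 CPM in untreated libraries, and at 7.94 and 9.65 CPM in the knockout. The 4 controls lay close together and the knockout libraries far below them, with a log2 fold change of -2.66 ± 0.17 (adjusted p = 1.02e-06). ETV4, an ETS transcription factor, stood at 11.9 and 9.63 CPM against 2.54 and 1.71 CPM (-2.34 ± 0.28, adjusted p = 0.00012). TREML2, a receptor of the TREM family, stood at 2.64 and 2.05 CPM against 0.195 and 0.235 CPM (-3.37 ± 0.38, adjusted p = 6.54e-05). Against untreated cells these 3 genes were also called lower, by -2.56, -1.55 and -4.07.

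TMBIM1, a membrane protein with a Bax inhibitor motif, EPOR, the erythropoietin receptor, AQP3, a water and glycerol channel, TEC, a cytoplasmic tyrosine kinase, ICAM2, a ligand of leukocyte integrins, and ADAM23, a catalytically inactive metalloprotease relative, fell in the same way. Their log2 fold changes were -2.08, -1.62, -1.56, -2.09, -2.07 and -2.03, and each was called against untreated cells. Each was also called without replicate 1, which naming by fold change required. ITGA8, an integrin subunit, stood at 1.18 and 1.41 CPM in empty vector, 0.195 and 0.177 CPM in knockout and 4.0 and 4.51 CPM in untreated libraries. TIRAP, an adaptor of toll-like receptors, stood at 0.588 and 0.730 CPM against 0.130 and 0.0588 CPM, and GPNMB, a transmembrane glycoprotein, at 1.84 and 1.64 CPM against 0.326 and 0.235 CPM. Separate groups were a condition for naming these genes. All 3 were called against untreated cells.

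For some of the lowest fold changes the untreated libraries did not lie with empty vector. MAGEB2, a cancer-testis antigen, stood at 4.11 and 3.51 CPM in empty vector, 0.846 and 0 CPM in knockout, and 0.138 and 0.358 CPM in untreated libraries. C11orf96 stood at 1.76 and 1.05 CPM in empty vector, 0.0651 and 0.177 CPM in knockout, and 0.138 and 0 CPM in untreated libraries. HDHD3 had 26 counts in empty vector and 0 in the knockout, at least 7.89-fold lower, and 0 in the untreated libraries too. For these genes the untreated and knockout libraries lay together and empty vector lay above both. Against untreated cells C11orf96 and MAGEB2 had the opposite sign (0.53 and 0.82), with adjusted p = 0.843 and 0.693. RNF130, MAP7 and FGFR1 had 17, 13 and 6 counts against 0 and were at least 5.16-fold, 3.95-fold and 1.82-fold lower, and none of the 3 was called against untreated cells. CA8 had 18 counts against 0, at least 5.47-fold lower, and its untreated libraries, at 0.506 and 0.286 CPM, lay with empty vector (adjusted p = 0.0358 against untreated). SLC27A5 had 27 counts in empty vector and 3 in the knockout (ratio 8.20, counting interval 2.52 to 42.2). BCL7A stood at 1.69 and 2.15 CPM in empty vector, 0.456 and 0 CPM in knockout and 1.24 and 1.29 CPM in untreated libraries (adjusted p = 0.0645 against untreated).

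Interferon-stimulated genes are switched on by the factor ISGF3, which holds STAT2 and IRF9, and encode antiviral sensors and effectors. Of the 70 on the list that were tested, 27 were higher and 2 lower in the knockout, beside 16.2% higher and 20.0% lower over all genes, and the median log2 fold change was 1.2 against 0.00 over all genes. Some of the 70 had few or no counts in the 4 compared libraries and passed the filter through other libraries. HERC5, HERC6 and IFI44L had 1, 2 and 1 counts in the knockout and 0 in empty vector. Such fold changes depend on the fit's prior count and enter the median. Without empty vector replicate 1, 21 were higher and 1 lower, with a median of 1.22. Against untreated cells 15 were higher and 1 lower, with a median of 0.30, and 13 were called higher in all 3 comparisons (2.61% of all genes): IFIT3, IFIT5, RSAD2, LGALS3BP, IFI27, DDX60L, PARP14, PARP9, RNF213, OAS2, RTP4, DTX3L and ISG20. With limma-voom quality weights, which gave both empty vector libraries low weight, 2 were called higher, and on the 4 compared libraries alone 14.

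The interferon response element is the site of ISGF3, and its core is written here as GAAANNGAAA and searched on both strands. The 250 bases before the start of 5 genes are shown from the RefSeq promoter table (GRCh38.p14), read 5′ to 3′ in the direction of the gene, to place the letters beside the genes that rose. Capitals mark the core on either strand in IFIT3, PARP14, DDX60L and LGALS3BP, and the letters TGGGAA, which hold the core bound by Ikaros, in CD38. IFIT3 has 2 starts in the table, and the window of the start listed before the other is given.
IFIT3, chr10:89327747-89327996, plus strand: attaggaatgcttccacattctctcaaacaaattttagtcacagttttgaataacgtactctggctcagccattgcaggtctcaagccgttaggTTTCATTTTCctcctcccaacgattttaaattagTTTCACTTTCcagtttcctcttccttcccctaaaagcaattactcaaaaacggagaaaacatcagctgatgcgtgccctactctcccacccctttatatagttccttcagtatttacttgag
PARP14, chr3:122680589-122680838, plus strand: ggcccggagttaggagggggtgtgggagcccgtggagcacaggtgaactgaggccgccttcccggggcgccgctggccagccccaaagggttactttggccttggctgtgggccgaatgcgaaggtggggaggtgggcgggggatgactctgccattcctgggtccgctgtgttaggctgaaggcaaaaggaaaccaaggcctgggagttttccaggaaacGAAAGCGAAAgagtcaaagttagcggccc
DDX60L, chr4:168480493-168480742, minus strand: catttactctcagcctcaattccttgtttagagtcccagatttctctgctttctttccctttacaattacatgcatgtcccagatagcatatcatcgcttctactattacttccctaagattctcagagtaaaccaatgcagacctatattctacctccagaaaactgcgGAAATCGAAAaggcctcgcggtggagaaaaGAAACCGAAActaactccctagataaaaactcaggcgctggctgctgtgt
LGALS3BP, chr17:78979924-78980173, minus strand: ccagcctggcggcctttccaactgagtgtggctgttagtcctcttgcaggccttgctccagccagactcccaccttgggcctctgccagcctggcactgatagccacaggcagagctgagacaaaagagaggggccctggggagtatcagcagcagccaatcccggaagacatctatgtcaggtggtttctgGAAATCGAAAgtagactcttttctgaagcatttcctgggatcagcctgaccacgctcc
CD38, chr4:15778078-15778327, plus strand: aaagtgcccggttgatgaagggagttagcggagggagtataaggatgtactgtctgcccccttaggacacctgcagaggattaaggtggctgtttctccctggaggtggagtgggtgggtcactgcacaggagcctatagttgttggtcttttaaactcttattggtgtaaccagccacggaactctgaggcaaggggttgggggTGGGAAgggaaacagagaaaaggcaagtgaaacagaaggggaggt

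The core lay 146 and 112 bases before the start in IFIT3, 70 and 40 in DDX60L, 48 in LGALS3BP and 19 in PARP14. It was present in such a window for 3.71% of 27305 genes in the table and for 32 of the 55 tested interferon-stimulated genes with an entry (58.2%). Among those called higher it was present in 17 of 24 (70.8%), and among the others tested in 15 of 31 (48.4%). Over all genes called higher the share was 3.79%, and over those called lower 2.64%. TGGGAA was present in 24.6% of all windows, 27.5% of genes called higher and 23.1% of genes called lower. A match describes the letters only.

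IFIT3, an antiviral protein with tetratricopeptide repeats, stood at 0.882 and 1.19 CPM in empty vector, 28.5 and 29.9 CPM in knockout and 1.56 and 1.5 CPM in untreated libraries (log2 4.77 ± 0.39, adjusted p = 5.37e-06). Its relative IFIT5 stood at 0.220 and 0.548 CPM, 10.1 and 15.1 CPM, and 3.13 and 3.22 CPM in the same order (4.89 ± 0.44, adjusted p = 1.05e-05). DDX60L, a putative helicase, stood at 1.91 and 2.46 CPM, 26.6 and 33.6 CPM, and 6.94 and 6.66 CPM (3.75 ± 0.41, adjusted p = 6.01e-05). For IFIT5 and DDX60L the untreated libraries lay between the empty vector and the knockout, so the fold change against them was smaller, at 1.99 and 2.14. RNF213, a large ubiquitin ligase, went from 8.96 and 17.3 CPM to 92.9 and 83.3 CPM (2.72 ± 0.33, adjusted p = 0.000138).

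PARP14 and PARP9, which transfer ADP-ribose from NAD, rose by log2 3.46 and 2.85, and OAS2, which makes 2-5A to activate RNase L, by 2.64. LGALS3BP, a secreted glycoprotein, had 100 counts in the knockout and 2 in empty vector (ratio 54.9, counting interval 14.8 to 459), and RSAD2, the radical enzyme viperin, 67 against 2 (36.8, 9.79 to 310). IFIT1 had 128 counts against 1 and was called with both replicates, but its adjusted p without replicate 1 was 0.191. IFI6, IFIH1, SAMD9L, ADAR and IFITM3 also lost their calls there, with adjusted p = 0.0557, 0.228, 0.215, 0.0683 and 0.0537.

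Other members of the list did not pass the test. ISG15, the ubiquitin-like modifier, stood at 1.91 and 1.00 CPM in empty vector and 2.15 and 1.00 CPM in knockout libraries (adjusted p = 0.881), and MX1 at 3.53 and 4.02 CPM against 11.1 and 2.12 CPM (adjusted p = 0.32), with overlapping groups in both. OAS3, CMPK2, TRIM22 and LAMP3 had no counts in the 4 compared libraries. STAT2 was called higher (log2 0.67, adjusted p = 0.00724) and had the opposite sign against untreated cells (-0.07), and IRF9 (-0.04) was not called (adjusted p = 0.902). Of 28 receptors, kinases, STATs and IRFs tested, 8 were higher and 3 lower, beside 16.2% and 20.0% of all genes, and without replicate 1 the counts were 4 and 1, beside 11.2% and 10.0%. STAT3 was among them at 0.82 ± 0.13 and was also called against untreated cells (0.66, adjusted p = 0.00461).

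**Figure D2:**
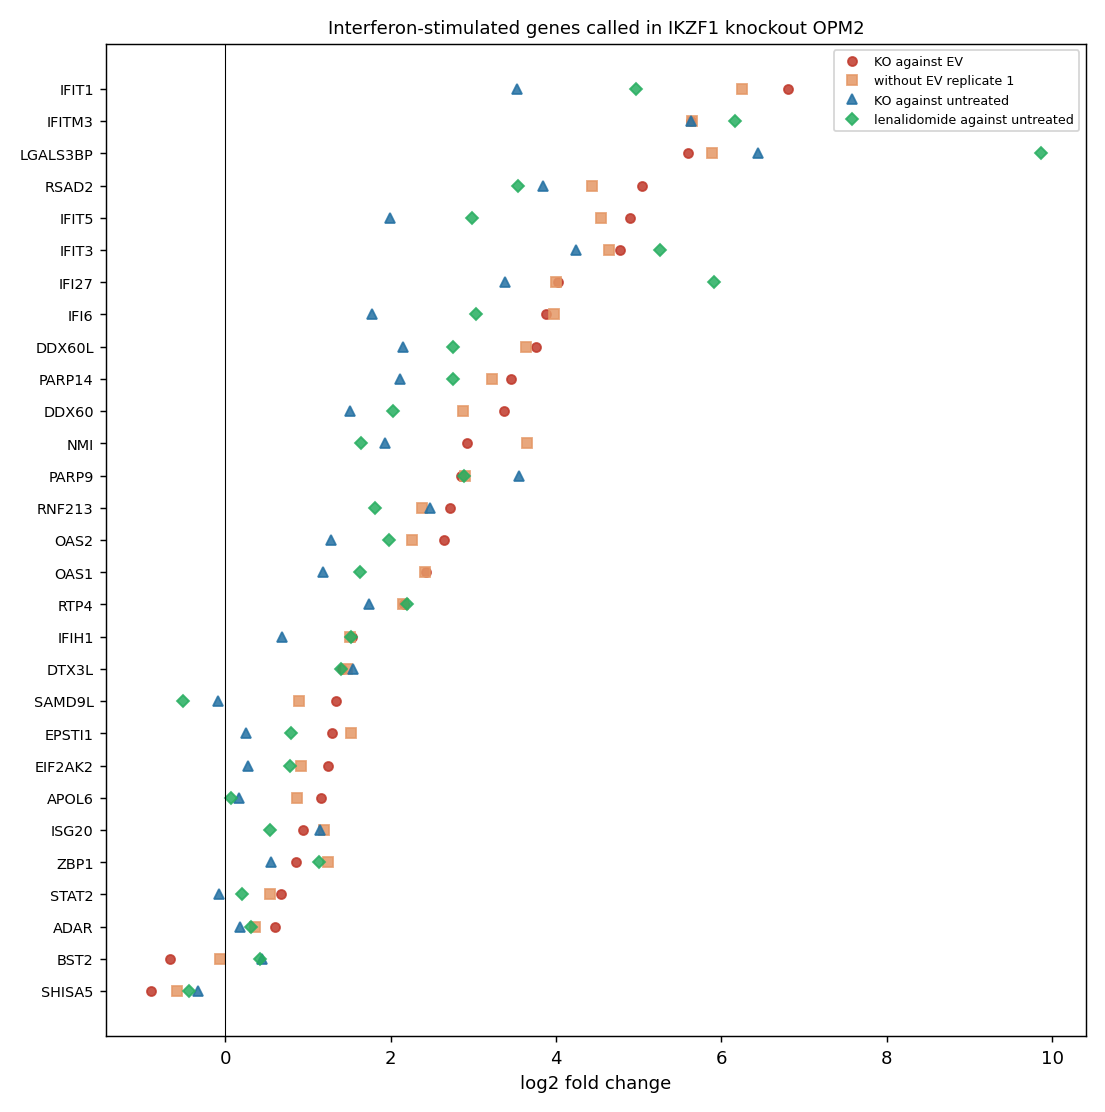
Log2 fold change of the 29 interferon-stimulated genes called in the knockout, 1 row per gene, for knockout against empty vector (circles), the same without empty vector replicate 1 (squares), knockout against untreated cells (triangles) and lenalidomide against untreated cells (diamonds). Most circles and squares lie close together, while SAMD9L and STAT2 have triangles at -0.09 and -0.07; values of genes with few counts, such as IFIT1 and IFITM3, depend on the fit's prior count.

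CD38 (Entrez 952, chromosome 4, 15778328 to 15853232) stood at 15.6 and 17.4 CPM in empty vector, 44.5 and 48.8 CPM in knockout and 10.9 and 12.7 CPM in untreated libraries. All 4 control libraries lay below both knockout libraries, and the call held without replicate 1 (adjusted p = 0.00799) and against untreated cells (log2 1.98, adjusted p = 8.7e-05). Over all genes 16.2% were higher and 20.0% lower. Of 16 genes of CD38 and NAD metabolism, 2 were higher and 2 lower, and 3 and 1 without replicate 1. The other higher gene was NMRK1, which makes the NAD precursor NMN from nicotinamide riboside, at 19.2 and 19.3 CPM against 37.2 and 37.3 CPM (0.95 ± 0.12, adjusted p = 0.000125), and it too was called against untreated cells (0.62, adjusted p = 0.00375).

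Among 25 surface proteins studied as myeloma targets, 4 were higher and 5 lower, shares near the 16.2% and 20.0% of all genes, and 3 and 4 without replicate 1. Against untreated cells 4 of the 25 were higher and 8 lower, beside 4.08% and 3.69% of all genes, with a median log2 fold change of -0.50. CD44, the hyaluronan receptor, stood at 33.1 and 39.3 CPM in empty vector, 14.3 and 17.5 CPM in knockout and 40.9 and 42.8 CPM in untreated libraries (-1.19 ± 0.22, adjusted p = 0.00151). CD48, a ligand of the receptor 2B4, stood at 666 and 553 CPM against 356 and 277 CPM (-0.94 ± 0.14, adjusted p = 0.000462). TNFRSF17, which encodes BCMA, stood at 581 and 438 CPM against 360 and 280 CPM (-0.67 ± 0.14, adjusted p = 0.00298). CD55, which limits complement, fell by 0.52 on the log2 scale, and these 4 genes were called with and without replicate 1 and against untreated cells. SLAMF7 stood at 523 and 524 CPM against 365 and 186 CPM, and its call (adjusted p = 0.00462) was lost without replicate 1 (adjusted p = 0.0596).

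Of 26 genes of the plasma cell program, 4 were higher and 8 lower, beside 16.2% and 20.0% of all genes, and without replicate 1 the counts were 5 and 4, beside 11.2% and 10.0%. XBP1, which drives secretory expansion, stood at 2539 and 2489 CPM in empty vector and 3216 and 3314 CPM in knockout libraries (0.38 ± 0.09, adjusted p = 0.00739). IRF4 was not called, at 1560.5 and 2218 CPM against 2333 and 1831 CPM (adjusted p = 0.488), and its groups overlapped. PRDM1 was not called either (adjusted p = 0.0596). MZB1, a chaperone of immunoglobulin assembly, stood at 430.0 and 216 CPM in empty vector, 104 and 130 CPM in knockout and 179 and 169 CPM in untreated libraries, so that replicate 1 was the highest of the 6 libraries. FGFR3, which is overexpressed in this line by its translocation, stood at 2179 and 2168 CPM against 1285 and 1299 CPM, and the difference was not called with replicate 1 (log2 -0.75 ± 0.30, adjusted p = 0.0632) or without it (adjusted p = 0.262).

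The transcription factor ATF4 raises genes of amino acid uptake and synthesis when the integrated stress response is active. Of 44 tested genes of this response and of the unfolded protein response, 20 were lower and 5 higher in the knockout, 15 and 4 without replicate 1, and 19 and 0 against untreated cells. The shares of all genes that were lower were 20.0%, 10.0% and 3.69% in these comparisons, and with length and GC offsets 17 of the list were lower and 6 higher. The median log2 fold change was -0.28, -0.13 and -0.57 in the 3 comparisons without offsets. With offsets 2150 of all 14571 genes were higher and 2449 lower. On the 4 compared libraries alone 0 of the list were called lower, as for nearly all genes there, and 10 with quality weights. In all 3, 15 genes (1.28% of all genes) were called lower: TRIB3, SLC7A5, SESN2, SLC3A2, DDIT3, ASNS, PPP1R15A, SHMT2, ATF4, CEBPB, PCK2, CHAC1, CEBPG, PSPH and MTHFD2. PSPH alone of these lost its call with the offsets (log2 0.01, adjusted p = 0.986).

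TRIB3, a pseudokinase that is a target of ATF4, stood at 189.8 and 127 CPM in empty vector, 55.2 and 55.2 CPM in knockout and 133 and 126 CPM in untreated libraries (-1.52 ± 0.16, adjusted p = 3.12e-05). SLC7A5, the light chain of the large neutral amino acid transporter, stood at 2281 and 2040 CPM, 1157 and 754 CPM, and 1941 and 1923 CPM in the same order (-1.18 ± 0.15, adjusted p = 0.000171). SESN2, which restrains mTORC1, stood at 177 and 167 CPM, 95.9 and 87.7 CPM, and 291 and 297 CPM (-0.91 ± 0.12, adjusted p = 0.000262). In each of the 3 genes the knockout libraries lay below all 4 controls. ASNS, asparagine synthetase, fell by 1.07 on the log2 scale, DDIT3, which encodes CHOP, by 1.51, and ATF4 itself by 0.96.

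Of the 44 genes 5 were higher, beside 16.2% of all genes, and 0 were higher against untreated cells. The 5 were XBP1, ATF6, ERN1, which encodes IRE1, SEL1L and DNAJC3, of other arms of the unfolded protein response or its targets. Their log2 fold changes were 0.38, 0.29, 1.11, 1.01 and 1.04, and 4 of the 5, all but ATF6, were also called without replicate 1. Of the lower members ATF5, DDIT4, HSPA5, MANF and SDF2L1 lost their calls without replicate 1, and HSPA5, a chaperone of the endoplasmic reticulum, had adjusted p = 0.261 there.

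**Figure D3:**
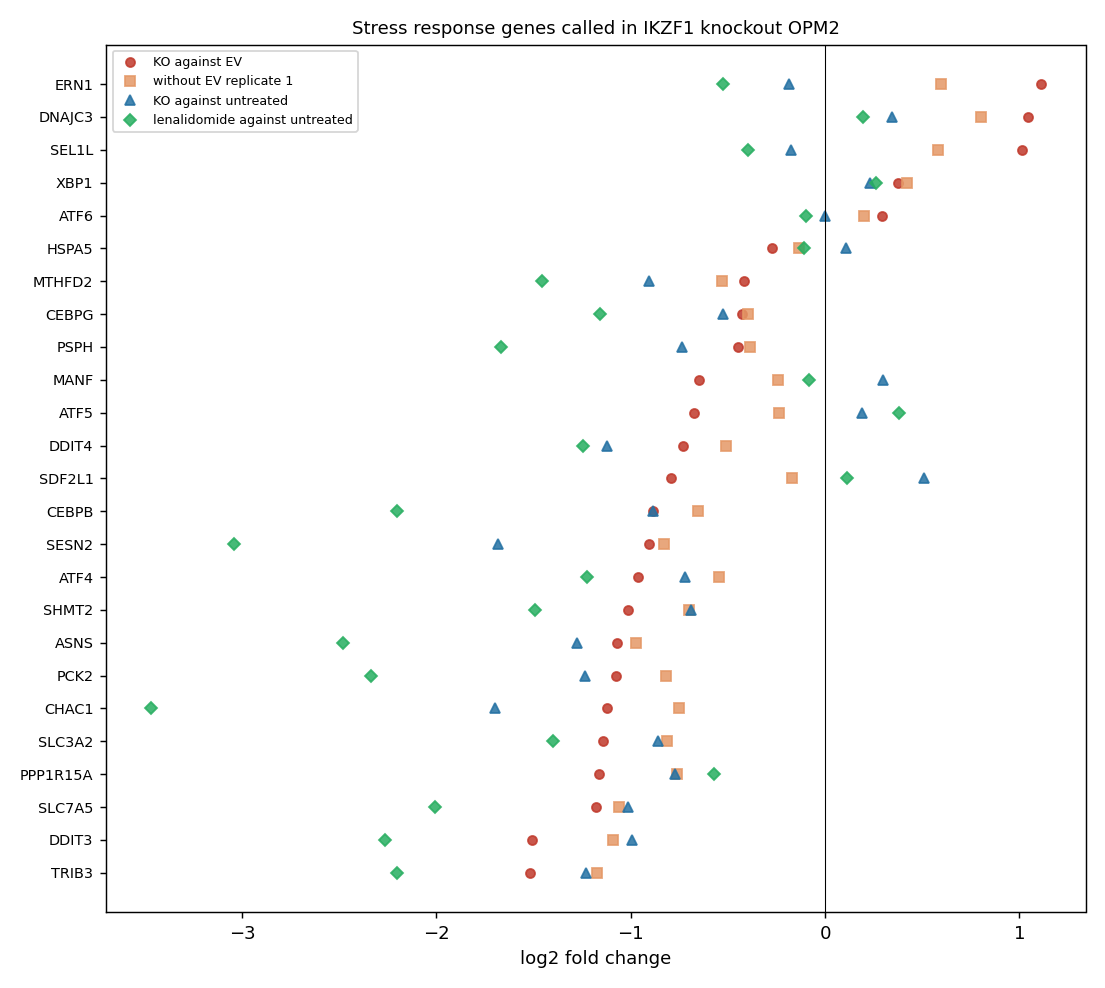
Log2 fold change of the 25 stress response genes called in the knockout, 1 row per gene, with the same 4 comparisons and symbols as for the interferon-stimulated genes. For TRIB3, ASNS, SESN2 and CHAC1 all 4 symbols lie below 0, and the lenalidomide diamonds lie farthest from 0, for example -3.04 for SESN2.

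Ribosomal protein genes were lower against empty vector and not against untreated cells. Of 76 tested, 74 were called lower and 0 higher, beside 20.0% and 16.2% of all genes. Against untreated cells 3.69% of all genes were lower. The median log2 fold change of the 76 against empty vector was -0.93. The counts were 66 without replicate 1 (median -0.48), 51 with offsets for gene length and GC content (16.8% of all genes lower), 30 with both (9.99%), and 0 against untreated cells (median -0.11). These genes took 8.26% and 5.45% of counts in empty vector replicates 1 and 2, 3.86% and 4.15% in knockout libraries a and b, and 4.62% and 4.13% in untreated libraries. The empty vector libraries, and replicate 1 most, thus stood above the other 4. Their transcripts are short, with a median length of 824 bases against 1993 over all genes tested.

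Genes of mitochondrial respiration were also lower against empty vector and not against untreated cells. Of 38 tested, 35 were lower and 1 higher (median -0.87), 31 were lower without replicate 1, 26 with offsets, and 0 against untreated cells (median 0.01), beside 20.0%, 10.0%, 16.8% and 3.69% of all genes lower. Across all genes with a known length the fold change rose with length (Spearman 0.54), less so without replicate 1 (0.38), and was -0.0025 against untreated cells. The part of length and GC content in these changes was not tested further than by the offsets.

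**Figure D4:**
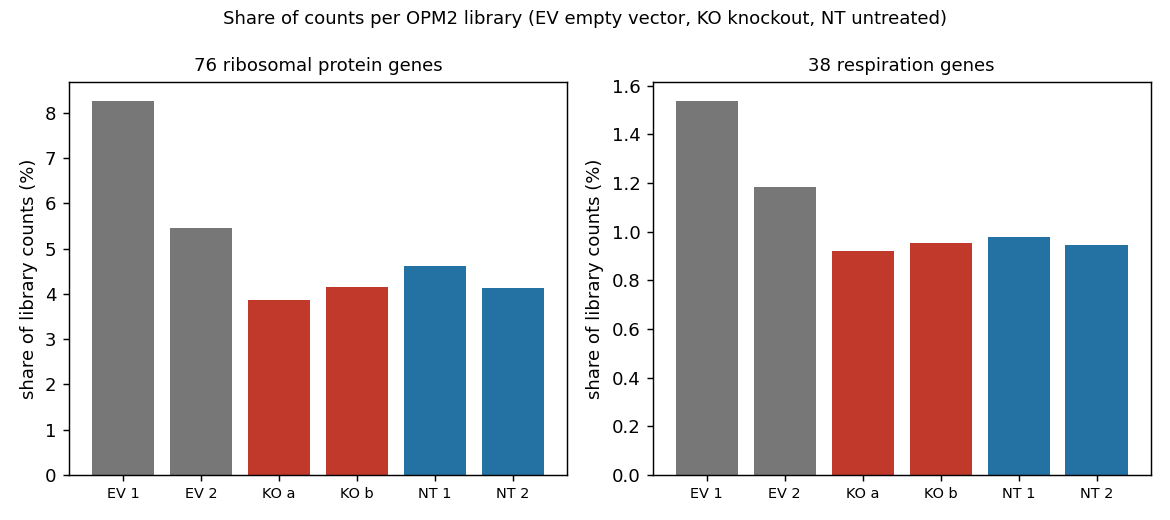
Share of each OPM2 library's counts in % taken by 76 ribosomal protein genes (left) and 38 respiration genes (right), 1 bar per library. Empty vector replicate 1 has the tallest bar in both panels, at 8.26% and 1.54%, and the knockout bars stand at 3.86% to 4.15% and 0.92% to 0.952%.

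MYC, the transcription factor of growth and ribosome synthesis, was called lower, and the call was lost with length and GC offsets (log2 -0.37, adjusted p = 0.178). It stood at 521 and 603 CPM in empty vector, 360 and 310 CPM in knockout and 533 and 539 CPM in untreated libraries, with both knockout libraries below all controls (-0.75 ± 0.15, adjusted p = 0.00222). Of 46 genes of the MYC network, 30 were lower and 2 higher, 28 and 2 without replicate 1, and 25 and 1 with offsets, beside 20.0%, 10.0% and 16.8% of all genes lower. Against untreated cells only MYC and LDHA of this list were lower, and the median was 0.10 in place of -0.62. RRP12, a ribosome biogenesis factor, stood at 139 and 105 CPM in empty vector, 67.1 and 63.0 CPM in knockout and 54.9 and 51.7 CPM in untreated libraries, so that its sign turned with the control (log2 -0.90 and 0.29).

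Of 36 genes of glycolysis and hypoxia, 15 were lower and 4 higher, 11 and 4 without replicate 1, and 13 and 0 against untreated cells, beside 20.0%, 10.0% and 3.69% of all genes lower. LDHA, lactate dehydrogenase A, stood at 2270.1 and 1947 CPM in empty vector, 1423 and 1417 CPM in knockout and 2409.9 and 2121 CPM in untreated libraries, and was lower in all 3 comparisons (-0.57, -0.42 and -0.67). SLC2A1, the glucose transporter GLUT1, was the only other member of this list lower in all 3 (-0.67, -0.60 and -0.63). Its call was lost with offsets (-0.26, adjusted p = 0.218). Most of the 13 genes lower against untreated cells were therefore not lower in all 3. BNIP3L, a mitophagy receptor, went opposite ways by control, at 13.7 and 21.5 CPM in empty vector, 50.4 and 48.7 CPM in knockout and 149 and 130 CPM in untreated libraries. It was called higher against the former (1.48 ± 0.22, adjusted p = 0.000562) and lower against the latter (-1.50, adjusted p = 0.00061).

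**Figure D5:**
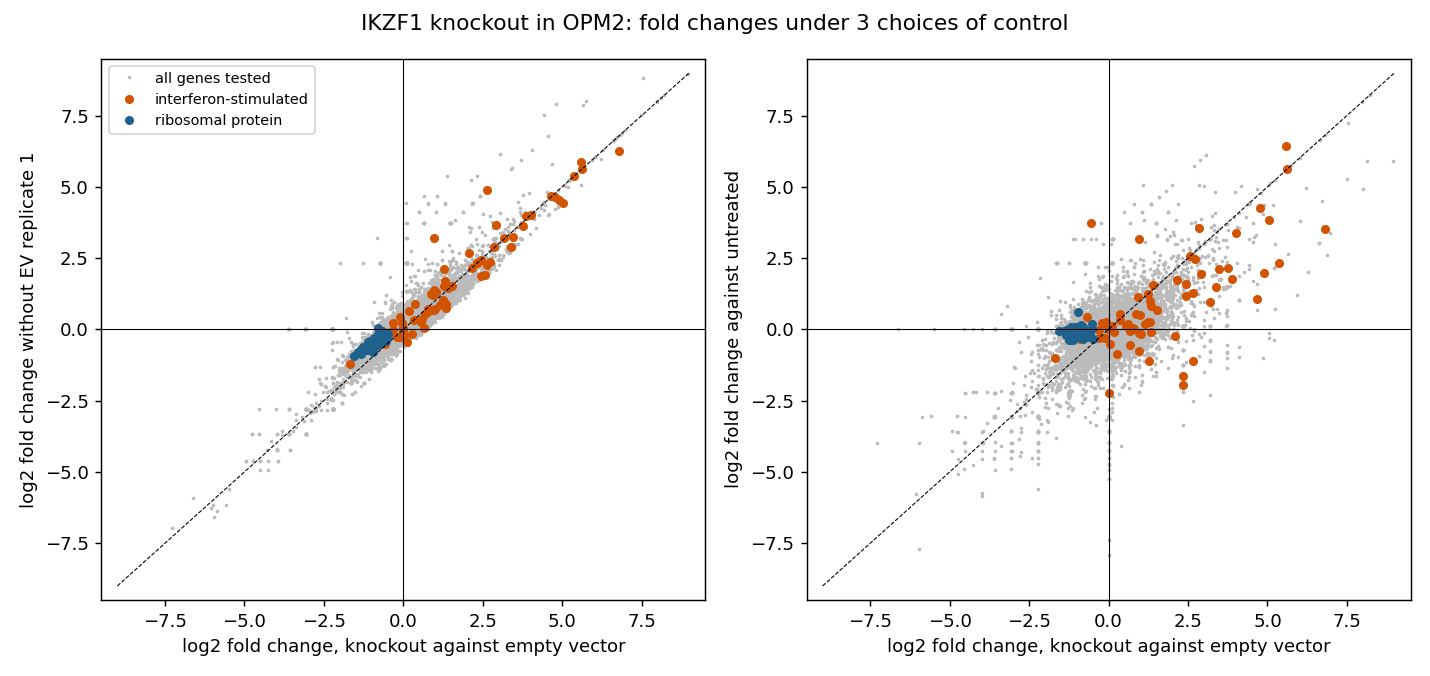
Log2 fold change of knockout against empty vector (horizontal) set against the same without empty vector replicate 1 (left) and against untreated cells (right), 1 point per gene with the line of equality dashed. Ribosomal protein genes move from a median of -0.93 to -0.48 and -0.11, while the interferon-stimulated genes have medians of 1.2, 1.22 and 0.30; the axes share libraries, so no correlation is given.

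Of 56 genes of the cell cycle 13 were higher and 16 lower, beside 16.2% and 20.0% of all genes, 7 and 11 without replicate 1, and 8 and 19 with offsets. With offsets 2150 of all 14571 genes were higher and 2449 lower. CDKN1A, the inhibitor p21, stood at 67.7 and 55.7 CPM in empty vector, 149 and 142 CPM in knockout and 95.0 and 75.0 CPM in untreated libraries (1.24 ± 0.14). It was higher in all 3 comparisons, while CDK4, a kinase of G1 (-1.0), was lower with and without replicate 1 and not called against untreated cells (-0.19, adjusted p = 0.558). Of 26 cytokine receptors 7 were higher and 4 lower, beside 16.2% and 20.0% of all genes, and 4 and 2 without replicate 1. IL13RA1, a receptor subunit for IL-13, stood at 2.13 and 1.96 CPM against 12 and 11.5 CPM (2.53 ± 0.31), and 2.34 and 2.22 CPM in untreated libraries. IL6ST, the signalling chain gp130, was called higher (1.59), but its untreated libraries, at 248 and 242 CPM, lay beside the knockout at 261 and 281 CPM.

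Of 41 KLF, AP-1 and immediate early factors, 8 were higher and 6 lower, shares near the 16.2% and 20.0% of all genes, and 7 and 6 without replicate 1. MAF, a bZIP factor of myeloma, stood at 59.5 and 69.5 CPM in empty vector, 186 and 246 CPM in knockout and 137 and 124 CPM in untreated libraries (1.74 ± 0.16), and KLF4 at 3.16 and 3.38 CPM against 13 and 19.1 CPM (2.29 ± 0.34). Both were called in all 3 comparisons. Of 29 genes of the BCL2 family and cell death, 7 were higher and 6 lower, beside 16.2% and 20.0% of all genes, 7 and 1 without replicate 1, 7 and 2 with offsets, and 0 and 1 against untreated cells. BCL2L11, which encodes BIM, was called higher (1.11) at 91.1 and 102 CPM in the knockout and stood at 105 and 101 CPM in untreated libraries. Of 22 genes of MHC class I presentation 2 were higher and 6 lower, and of 17 of class II 1 was higher and 5 lower, beside 16.2% and 20.0% of all genes. Without replicate 1 the counts were 1 and 2 in class I and 1 and 2 in class II. With offsets they were 8 higher and 3 lower in class I, whose median went from -0.06 to 0.17, and 2 higher and 1 lower in class II. Over all 14571 genes 2150 were higher and 2449 lower with offsets. Against untreated cells 1 was higher and 0 lower in class I, and 0 were higher and 4 lower in class II (median -0.97). The shares of all genes there were 4.08% higher and 3.69% lower.

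The same gene was deleted in the H929 and MM1S lines, whose controls are other libraries, and in H929 862 genes were higher (5.92%) and 670 lower (4.60%), and in MM1S 2273 (15.6%) and 1841 (12.6%). Of the 2365 genes higher in OPM2 (16.2%), 306 were higher in H929 (12.9% of the OPM2 list and 35.5% of the H929 list) and 634 in MM1S (26.8% and 27.9%). Of the 2918 genes lower in OPM2 (20.0%), 129 were lower in H929 (4.42% and 19.3%), near the shares of all genes. In MM1S 553 of them were lower (19.0% and 30.0%). The OPM2 effect differed from that of H929 in 12.7% of all genes and from that of MM1S in 20.7%, by the test of the difference in the same edgeR fit. Counts of interferon-stimulated genes are not compared between lines. Of the 70, 4 had no counts in the compared OPM2 libraries and others, such as HERC5, had few. These passed the filter through other libraries. Ribosomal protein genes were lower for 1 of 76 in H929 and 1 in MM1S.

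Lenalidomide at 10 µM for 72 h was compared with untreated OPM2 cells, which shares no library with the knockout comparison. It raised 840 genes (5.76%), of which 535 were also higher in the knockout (63.7% of the lenalidomide list and 22.6% of the knockout list), and lowered 668 (4.58%), of which 340 were shared (50.9% and 11.7%). S100A16 rose by 6.70 on the log2 scale with the drug, CX3CR1 by 4.93, CYSLTR1 by 5.87 and IFIT3 by 5.25, and UNC13C fell by 2.61. The edgeR test of the drug effect minus the knockout effect gave 4070 of 14571 genes an unadjusted p below 0.05. A gene that was not called there was not shown to respond alike. The difference of the drug effect from the knockout effect was called for 41 genes (0.281%), and for 541 without empty vector replicate 1. Of the stress response list 7 genes differed, among them SESN2 (-3.04 with the drug against -0.91), ASNS (-2.48 against -1.07) and CHAC1 (-3.47 against -1.12), and 21 differed without that replicate.

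The IKZF3 knockout shares the empty vector libraries, so the knockouts were set against each other directly. The test called 378 genes (2.59%), 249 of them higher in the IKZF1 knockout (1.71%), and 119 to 236 when any 1 of the 4 knockout libraries was left out. UNC13C stood at 38.3 and 51.2 CPM in the IKZF3 knockout, near the controls, and was lower in the IKZF1 knockout by a log2 difference of -2.35 ± 0.17 (adjusted p = 1.01e-05). CGN stood at 10.0 and 19.3 CPM (difference 2.95 ± 0.27), ADAM23 at 11.5 and 13.7 CPM (-2.04 ± 0.24) and S100A16 at 2.01 and 4.81 CPM (3.62 ± 0.34). Of these, S100A16 also lay above empty vector in the IKZF3 knockout, while CGN and ADAM23 were not called there (adjusted p = 0.321 and 1.00). These genes were named here after their values were seen. SESN2 stood at 37.8 and 35.0 CPM, lower than in the IKZF1 knockout (difference 1.33 ± 0.13).

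The authors' deposited table of log2 FPKM values, in which the empty vector libraries form 1 merged column, held all 5283 called genes, and 5279 of them had the same sign of difference there.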

How the data were processed

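RNA was sequenced from 18 libraries in 9 groups of 2, from the OPM2, H929 and MM1S lines, of which 4 enter the main comparison. RNeasy Plus was used for RNA and TruSeq for the libraries, per the labels' protocols. The authors deposited raw counts per gene, and a table of log2 FPKM values with 16352 genes in 14 columns; the submitters' processing notes name Subread, featureCounts, limma and GRCh38, with no versions. Libraries held about 11804000 to 24189600 counts. Of 28395 genes, 385 had no symbol (at most 0.0276% of counts). They were kept under their Entrez numbers in the counts that were filtered and fitted.

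Counts were fitted in edgeR 4.0.16 (R 4.3.3) by the robust quasi-likelihood test over all 18 libraries, with filterByExpr, TMM scaling and Benjamini-Hochberg adjustment at 0.05. All groups share 1 estimate of spread (9 residual degrees of freedom), and standard errors were taken from the log2 fold change and the F statistic. CPM values are scaled by TMM. An exact permutation test of 2 against 2 libraries cannot go below p = 0.333. Length and GC offsets used a spline over gene models of an annotation release that may differ from the authors'. These models covered 96.9% of tested genes. A floor of 3 counts over a group was used for bounds on folds, and ratios of low counts have 95% exact intervals, which cover counting error only. The procedure was tested on simulated data, in which each gene had 1 spread over all libraries and replicates had no trend with length or GC content. That simulation cannot show how the p-values behave for a pair as unlike as the empty vector libraries.

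The rule for named genes took CD38, IKZF1 and IKZF3, then 15 genes from each end of the fold changes (average log2 CPM 1 or more, groups apart, call kept without empty vector replicate 1), then up to 4 genes per list by p. A tier at 10 CPM was added after the values were seen, as was the choice of other genes named. The comparison and the 31 gene lists were chosen with earlier results of these data known. Alternatives covered scaling, filters, DESeq2 1.42.0, limma 3.58.1 with and without quality weights, a 1.5-fold threshold, other sets of libraries and controls, and each replicate left out. Some items are not reported here.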

Additional observations from a re-analysis of the deposited data

Results flagged for a closer look

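The effect of IKZF1 knockout in OPM2 differed from that in H929 for 1844 genes and from that in MM1S for 3018 genes, by the edgeR quasi-likelihood test of the difference at an adjusted p below 0.05. Without empty vector replicate 1 of OPM2 the counts were 1846 and 3058.

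Among the genes with the largest changes in OPM2, the log2 effect in OPM2 minus that in H929 was higher for CYSLTR1 (10.71), SECTM1 (8.70), CD109 (7.21), AJUBA (7.14) and GAS2L1 (3.30). It was lower for HDHD3 (-7.22), RNF130 (-6.30), FGFR1 (-4.66), TREML2 (-3.91), MAGEB2 (-2.92), TIRAP (-2.40), GPNMB (-2.10) and ETV4 (-1.87). Against MM1S the difference was higher for CACNA1A (12.77), AJUBA (8.12), CYSLTR1 (5.11), IFIT5 (4.03), IFIT3 (3.56) and GAS2L1 (3.51). It was lower for C11orf96 (-8.19), RNF130 (-7.07), HDHD3 (-6.82), BCL7A (-5.52), ITGA8 (-5.35), CA8 (-5.14), TREML2 (-4.76), GPNMB (-3.45), TIRAP (-2.22) and UNC13C (-0.86). Values of genes at 0 in a group depend on the fit's prior count and are no bounds.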

How the results depend on the processing

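Counts of called genes stayed within 1.5 times of 5283 under RLE or upper-quartile scaling, no filter, a strict filter, DESeq2, voom and length and GC offsets. They were 905 (372 higher, 533 lower) with voom quality weights, 650 (446, 204) against a 1.5-fold change, 114 (108, 6) with the 4 libraries alone, 3345 (1405, 1940) with the 10 OPM2 libraries, 1131 (594, 537) against untreated cells and 2219 (1142, 1077) against both controls averaged. With offsets they were 2789 (1298, 1491) without empty vector replicate 1 and 2254 (1179, 1075) against untreated cells, alternatives chosen after seeing the data. Leaving out each replicate gave 3076 to 7982 genes, 1420 to 3913 higher and 1495 to 4069 lower. The cause was not tested.

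Interferon-stimulated genes called higher numbered 2 with weights, 14 with 4 libraries, 15 against untreated cells, 17 with offsets against untreated cells and 21 to 24 without a replicate. Stress genes called lower numbered 10, 8 (1.5-fold), 0 (4 libraries) and 13 to 21 without a replicate. Ribosomal protein genes called lower numbered 43, 14, 0, 0 (untreated), 47 (averaged), 30 and 8 (offsets without replicate 1 and against untreated) and 66 to 76 without a replicate. Respiration genes numbered 17, 4, 0, 0, 12, 21 and 1 in that order, and 31 to 37; MYC network genes 17, 4, 0, 2 and 10, 4 with offsets against untreated cells, and 24 to 30. The lenalidomide difference called 41 genes, or 541 without empty vector replicate 1, and the direct knockout contrast 378, or 119 to 236 without a replicate.

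Signs turned against untreated cells, without and with offsets, for RRP12 (0.29, 0.27), C11orf96 (0.53, 0.52), CHD4 (-0.031, -0.058), PA2G4 (0.13, 0.14), STAT2 (-0.073, -0.087), PSME2 (0.18, 0.18), PSMB10 (0.27, 0.25), RFXANK (0.083, 0.070), BAX (0.19, 0.17), COX5B (0.021, 0.014), BCL2L11 (-0.096, -0.11), CCR1 (-0.020, -0.028), RRP9 (0.41, 0.40), TNFAIP3 (-0.55, -0.56), BNIP3L (-1.50, -1.49), NDRG1 (-0.040, -0.046), MAGEB2 (0.82, 0.83), CUL4B (-0.30, -0.28), XIAP (-0.18, -0.19) and NSDHL (0.10, 0.11), and with offsets for IKZF4 (-0.0045) and IKZF1 (-0.025). With offsets against empty vector BAX (0.059) and IKZF5 (-0.12) turned, and BNIP3L with averaged controls (-0.0079). Of 146 named called genes, 133 kept their call without empty vector replicate 1 and 69 against untreated cells. No paired analysis was possible because the knockout columns carry no replicate number of the titles.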
